A study of Homo sapiens with 10 samples.

Results

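The genes of 8 dual-specificity phosphatases (DUSP1, DUSP2, DUSP3, DUSP4, DUSP5, DUSP6, DUSP7 and DUSP10) and 2 Sprouty proteins (SPRY1 and SPRY2) were examined in the acute promyelocytic leukemia cell line NB4. These 10 genes were chosen by name as negative regulators of MAP kinase signaling, and each had 1 protein-coding row among the 60603 rows of both deposited tables. The study has 5 groups of 2 libraries. In the GSE1 knockdown, NB4 cells were transduced with lentiviral pLKO.1 puro that was empty (EV) or carried the short hairpin shA1 or shB2 against GSE1, and were collected after 48 h. In the LSD1 inhibition, NB4 cells that the labels list without a vector received DMSO or 2 µM MC2580 for 24 h. Both experiments used 1 cell line, so their libraries do not sample different patients.

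MAP kinase cascades carry signals from growth factor and cytokine receptors through RAS and a chain of kinases to ERK, p38 and JNK. Dual-specificity phosphatases switch these kinases off by removing phosphate from both the threonine and the tyrosine of the activation loop, while Sprouty proteins act upstream, between the receptor and RAF. Many of their genes are transcribed in response to the same cascades, so that they form a negative feedback loop, and in myeloid cells ERK signaling is tied to growth and to maturation.

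The value used is the base mean, the authors' average of size-factor normalised counts over every library in an experiment. It averages 6 libraries in the knockdown experiment (EV, shA1 and shB2 together) and 4 in the LSD1 inhibition experiment (DMSO and MC2580 together). A base mean therefore gives how much of a transcript the cells of an experiment held, and no difference between EV and a hairpin or between DMSO and MC2580. Values per library were not analysed here, so no standard deviation, interval or test accompanies a level, and neighbors in an order of levels cannot be told apart statistically. The base means summed to 40543129.6 in the knockdown table and 41201112 in the inhibitor table. The targeted gene, GSE1, had base means of 2963 and 4441, which do not check the hairpin labels because EV and hairpin libraries are averaged. Among 7 promyelocyte markers, 6 reached 10 in both tables, with MPO (myeloperoxidase) at 506765 and 824818, whereas ELANE (neutrophil elastase) was at 1.10 and 3.87. Of 7 markers of other cell types, 3 were below 10 in both tables. The T-cell gene CD3D was the highest of them per kb, with base means of 866 and 869, and the B-cell gene MS4A1 the lowest, with 0.217 in the knockdown table and listed at 0 in the inhibitor table. Named after their values were seen, the epithelial gene EPCAM was at 432 and 403, and the T-cell gene CD3E at 1.55 and 2.98.

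The genes are short. They span between 2272 bases (DUSP2) and 40666 bases (DUSP10) on GRCh38, with a median of 7309.5 bases, against 32052.5 bases for the 12716 protein-coding genes that reached a base mean of 10 in either table and have an annotated 3′ UTR. Their principal transcripts have 2 to 4 exons, where the median of those genes is 9. The pentamer ATTTA, the core of AU-rich elements that shorten the life of many early response mRNAs, was found in the 3′ UTRs of 8 of the 10 genes and in 71.0% of the background. The longer element TTATTTATT was present in 2 copies in DUSP1 and in 1 copy in DUSP4, and in 9.0% of the background. Neither DUSP5 nor DUSP7 held an ATTTA.

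RefSeq windows from 250 bases before to 50 bases after the start of transcription (GRCh38.p14) were matched for 8 of the genes, in 12 windows, and none was matched for DUSP4 and DUSP5. Motifs were searched on both strands. A gene was counted where any of its windows held the motif, while the percentages are of single windows. The cAMP response element TGACGTCA was present in DUSP1 alone among the 8 genes and in 1.85% of 35116 windows. The E-box CACGTG was found in DUSP1 and DUSP2 (7.26% of windows), the TATA box TATAAA in DUSP1 (11.5%), and the ETS site CCGGAAG in SPRY1 (10.3%). The GC box GGGCGG was found in 7 of the 8 genes, all but DUSP6, and in 45% of windows. These shares are not directly comparable, since some genes have several windows. In GC content, 7 of the 12 windows lay above the median of all windows, 58.67%. No window of these genes held an AP-1 site TGANTCA (7.71% of windows) or a CArG box (1.29%). The searched motifs do not overlap in the DUSP1 window, which is shown because DUSP1 was the only gene with 3 of the rarer motifs. It lies at chr5:172771146-172771445 on the minus strand, and capitals mark the cAMP response element, the E-box and the TATA box, which begin 125, 108 and 30 bases before the start.
DUSP1: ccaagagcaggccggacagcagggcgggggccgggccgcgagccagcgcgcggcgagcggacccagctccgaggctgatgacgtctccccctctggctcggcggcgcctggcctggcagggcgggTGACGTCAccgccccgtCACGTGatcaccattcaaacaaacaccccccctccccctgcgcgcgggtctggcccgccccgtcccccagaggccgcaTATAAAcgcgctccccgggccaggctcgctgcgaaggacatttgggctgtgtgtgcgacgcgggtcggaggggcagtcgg

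All 10 genes were expressed in both experiments, none below a base mean of 50. Of the 19975 protein-coding rows, 11318 reached 50 in either table. DUSP6, which inactivates ERK in the cytoplasm, was the most abundant in both. Over the protein-coding genes with a value above 0, the median base mean was 409 in the knockdown table (17337 genes) and 396 in the inhibitor table (17091 genes). Above this median lay 9 of the 10 genes in the knockdown experiment, all but DUSP1, and 7 in the inhibition experiment, all but DUSP1, DUSP5 and DUSP10. The median over the 10 genes was 889 in the knockdown table and 768 in the inhibitor table. When only protein-coding genes that reached 10 were taken as the background, 4 and 3 of the 10 lay above the median.

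**Figure D1:**
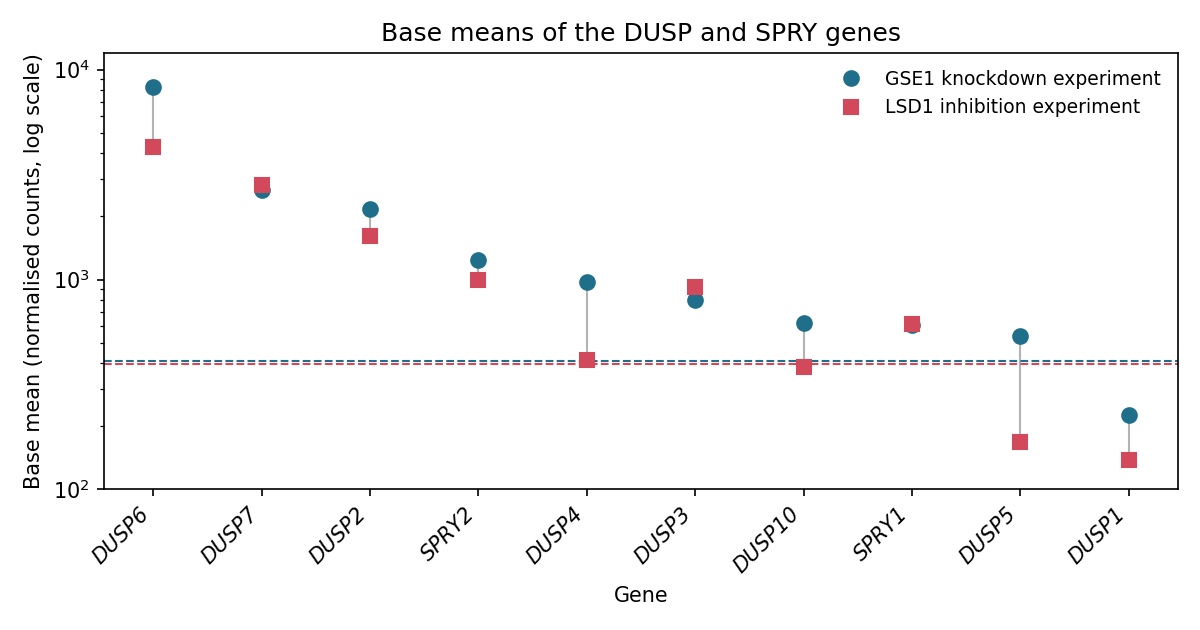
Base mean (normalised counts, log axis) of each gene in the GSE1 knockdown experiment (circles, mean of 6 libraries) and in the LSD1 inhibition experiment (squares, mean of 4 libraries), ordered by the knockdown value. Dashed lines mark the median of protein-coding genes above 0 in each table, 409 and 396. DUSP6 is highest in both, and DUSP4 and DUSP5 have the widest gaps between the experiments.

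Of the cytoplasmic phosphatases directed at ERK, DUSP6 (ENSG00000139318.8, chromosome 12, 89347235 to 89352501, minus strand) had a base mean of 8224 in the knockdown table and 4271 in the inhibitor table. These values stood above 94.8% and 87.8% of the protein-coding genes with a base mean above 0. DUSP6 alone made up 45.5% of the summed base means of the 10 genes in the knockdown table and 34.6% in the inhibitor table. An antisense lncRNA, ENSG00000274021.1, shares 1105 of the 3859 merged exon bases of DUSP6 and had base means of 201 and 120 (119.6). The library kit does not mark strand, so reads from the shared stretch cannot be told apart. DUSP7 (ENSG00000164086.10, chromosome 3, 52048919 to 52056571, minus strand), the closest relative of DUSP6 in this role, had the next highest base means, 2682 and 2810.5. That place holds for base means not divided by gene length.

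The 4 inducible nuclear phosphatases were spread over a wide range. DUSP2 (ENSG00000158050.5, chromosome 2, 96143169 to 96145440, minus strand), known from activated blood cells, had base means of 2159 in the knockdown table and 1620.0 in the inhibitor table. DUSP4 (ENSG00000120875.9), which acts on ERK and JNK, had base means of 977 and 415. DUSP5 (ENSG00000138166.6, chromosome 10, 110497907 to 110511533, plus strand), which binds ERK in the nucleus, had base means of 539 and 169. DUSP1 (ENSG00000120129.6, chromosome 5, 172768096 to 172771195, minus strand) acts on p38 and JNK as well as ERK and is a classic immediate early gene. It had the lowest base means of all 10, 226 and 137, with gene length not taken into account. The pseudogenes DUSP5P1 and DUSP5P2 were listed at 0 in both tables.

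DUSP10 (ENSG00000143507.18, chromosome 1, 221701424 to 221742089, minus strand), which prefers p38 and JNK to ERK, had base means of 622 in the knockdown table and 385 in the inhibitor table. DUSP3 (ENSG00000108861.9, chromosome 17, 43766125 to 43778977, minus strand), a small phosphatase without the kinase-binding domain of the others, was at 800.5 and 921. Of the Sprouty genes, SPRY2 (ENSG00000136158.12, chromosome 13, 80335976 to 80341126, minus strand) was at 1238 and 992, and SPRY1 (ENSG00000164056.11, chromosome 4, 123396795 to 123403760, plus strand) was at 609 and 616. SPRY1, DUSP3 and DUSP7 were the genes whose base means differed least in fold between the tables.

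A longer transcript collects more reads, so levels of different genes were compared after dividing the base mean by the length of the merged exons. On this scale of base mean per kb, DUSP6 stood at 2131 in the knockdown table and DUSP2 at 1119, a ratio of 1.90, and in the inhibitor table they stood at 1107 and 839.8, a ratio of 1.32. DUSP7 followed at 473 and 496, and SPRY2 at 385 and 309. These 4 genes held the first 4 places in the same order in both tables, and also when the longest transcript was used as the length. The other 6 genes lay between 112 and 220.0 per kb in the knockdown table and between 57.0 and 184 in the inhibitor table, and their order changed between the tables and with the length used. DUSP1 was lowest in the knockdown table, at 112, and DUSP4 in the inhibitor table, at 57.0. SPRY2 exceeded SPRY1 by a ratio of 2.51 in the knockdown table and 1.99 in the inhibitor table. Per kb, all 10 genes lay above the protein-coding median of 75.2 in the knockdown table, and 7 lay above that of 71.9 in the inhibitor table, with DUSP1, DUSP4 and DUSP5 just below it.

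**Figure D2:**
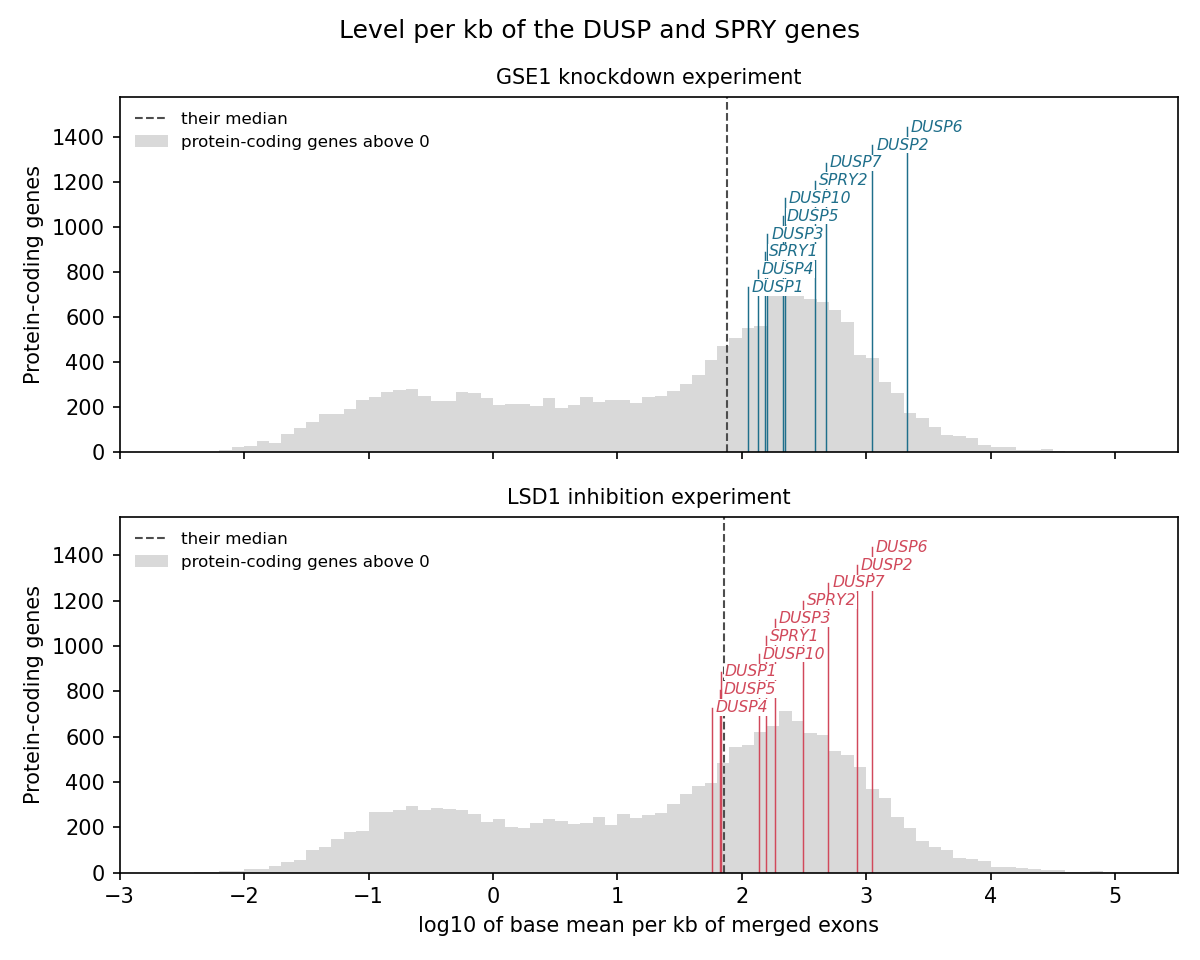
Distribution of the base mean per kb of merged exons (log10 scale) over protein-coding genes with a value above 0 in the GSE1 knockdown table (upper panel) and the LSD1 inhibition table (lower panel). Vertical lines mark the 10 genes and the dashed line the median of all genes, 75.2 and 71.9 per kb. DUSP6 and DUSP2 lie on the right flank of the distribution in both panels.

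The remaining members of both families were far less even. Of the other MAP kinase phosphatases, DUSP8 was listed at 0 in both tables, DUSP9 had base means of 20.3 and 42.5, and DUSP16 had base means of 21.7 and 8.45. None of these 3 relatives reached a base mean of 50 (0 of 3), unlike all 8 DUSP genes described above. Of the 19975 protein-coding rows, 11318 reached 50 in either table. The genes were chosen with earlier results of these data known, and the contrast was not tested. Among the other Sprouty and Spred genes, SPRY4 was at 1615 and 1511, SPRED2 at 3146 and 2825, SPRED1 at 1240.0 and 692, and SPRED3 at 25.7 and 23.8, while SPRY3 was listed at 0. Per kb, SPRY4 had 246 in the knockdown table and 231 in the inhibitor table, which places it between SPRY1 and SPRY2 in both. SPRED2, which like Sprouty restrains the activation of RAF, was at 571 and 513 per kb, above both SPRY genes.

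The kinases on which these inhibitors act were expressed throughout. All 10 genes of the ERK cascade list, from RAS to ERK, reached 10 in both tables, as did 12354 of the 19975 protein-coding rows. The median of that list was 521 per kb in the knockdown table and 400.0 in the inhibitor table, against 216 and 170 (169.9) for the DUSP and SPRY genes. ARAF was the highest of that list in the knockdown table, at 1235 per kb, and BRAF the lowest, at 74.96. The 8 genes of the p38 and JNK cascades had medians of 214 and 167 per kb, between MAP2K3 at 1153 and MAP2K6 at 3.19 in the knockdown table. Among 7 adaptors and RAS regulators, GRB2, which couples receptors to RAS, was the highest in the knockdown table, at 2110.09 per kb, close to DUSP6. NF1, a RAS inactivator, was the lowest there, at 75.3. In the inhibitor table GRB2 stood at 2803 per kb, well above DUSP6 at 1107. Of 7 genes known to be transcribed after ERK activation, FOSL1 was the highest in the knockdown table, at 1066 per kb, and IER3 the lowest, at 8.08. In the inhibitor table ETV4, named after its values were seen, exceeded FOSL1, at 1072 against 786 per kb.

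To set the experiments side by side, each base mean was expressed as a share of all base means of its table. The tables were normalized separately, and transduction, culture time, treatment and the averaging of control with treated libraries cannot be told apart in such a ratio. Relative to the knockdown experiment, 8 of the 10 genes had a lower share in the LSD1 inhibition experiment, or 7 when the tables were scaled to their median ratio, which turned SPRY1. The same was true of 57.7% of the 12838 protein-coding genes that reached 10 in either table. The median ratio was 0.670 for the 10 genes and 0.939 for all tested genes. DUSP5 had the lowest ratio, 0.309, followed by DUSP4 at 0.417, DUSP6 at 0.511, DUSP1 at 0.598 and DUSP10 at 0.609. DUSP4 and DUSP5 thus were over 2-fold lower in the inhibitor table, 2 of 10 genes, where 6.02% of all tested genes were, and 0 of the 10 were over 2-fold higher, against 2.06% of all tested genes. DUSP6 lay just inside this limit.

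DUSP2 had a ratio of 0.738 and SPRY2 of 0.789, near the 25th percentile of all tested genes, which was 0.749. SPRY1 (0.996), DUSP7 (1.03) and DUSP3 (1.13) lay within the middle part of all genes, whose 75th percentile was 1.17. In all, 6 of the 10 genes fell below the 25th percentile and 0 above the 75th. DUSP5 stood higher than 1.53% and DUSP4 higher than 3.47% of the tested genes in this ratio. The lowest ratios were those of DUSP1, DUSP4, DUSP5, DUSP6 and DUSP10, and the highest those of DUSP3 and DUSP7. All but SPRY1 and SPRY2 of the 10 genes are phosphatases, so phosphatases at both ends set neither family apart.

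**Figure D3:**
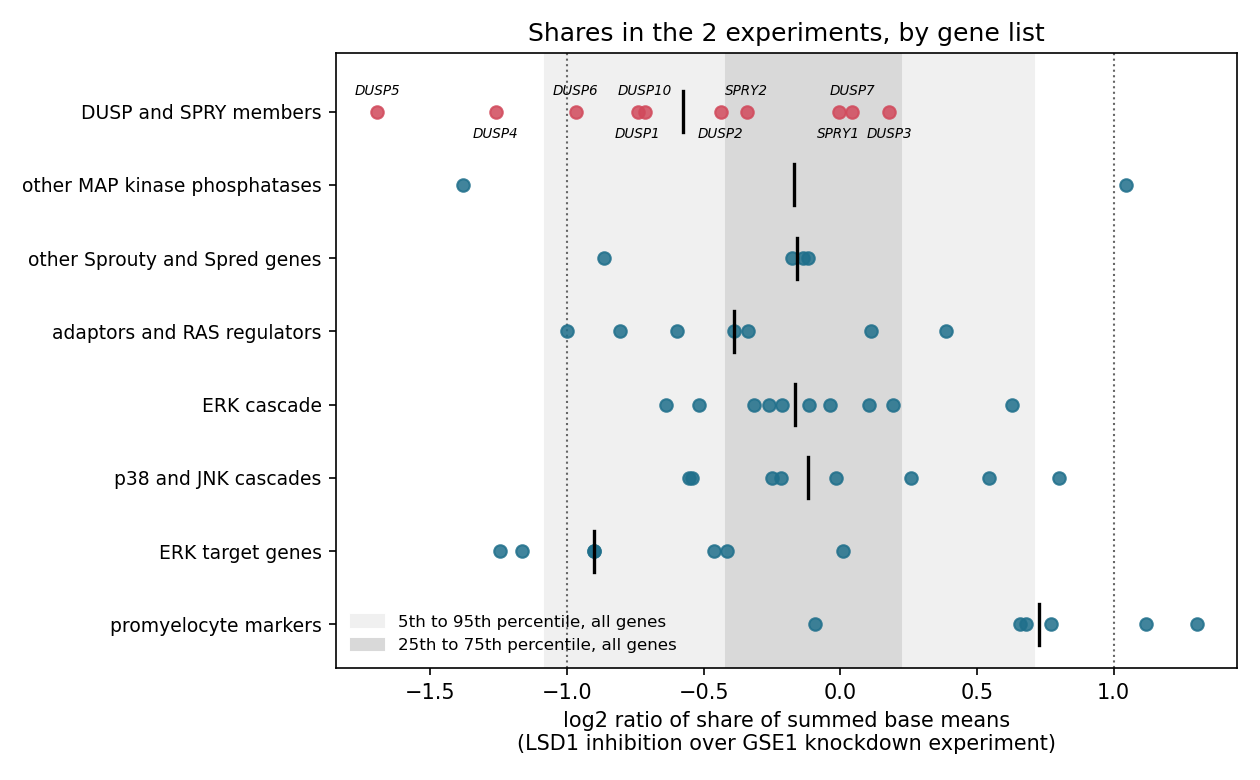
Log2 ratio of each gene's share of the summed base means, LSD1 inhibition over GSE1 knockdown experiment, for the 10 DUSP and SPRY genes (named, upper row) and for 7 other lists. Points are genes, black bars are list medians, shading covers the 5th to 95th and the 25th to 75th percentile of all tested genes, and dotted lines mark 2-fold. The DUSP and SPRY genes reach from 0.309 to 1.13 as ratios, and the ERK target genes lie mostly to the left as well. IER3 among the ERK target genes and DUSP16 among the other phosphatases reached 10 in the knockdown table alone.

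The cascade genes had ratios nearer to that of all genes, with medians of 0.892 for the ERK cascade and 0.922 for the p38 and JNK cascades. No gene of either list was over 2-fold apart (0 of 18 genes). Of all tested genes 6.02% were over 2-fold lower and 2.06% higher, so this count does not set the cascades apart. The 7 ERK target genes had a median ratio of 0.536. One of them, IER3, reached 10 only in the knockdown table (base means of 10.9 and 5.94). The minimum thus fixed that its share was lower in the inhibitor table, though not by how much. Over the other 6 genes, which reached 10 in both tables, the median was 0.624. With the same minimum in both tables, a choice made after the data were seen, the median was 0.670 for the 10 DUSP and SPRY genes and 0.9397 for all genes. The ERK target genes over 2-fold lower, named after their values were seen, were EGR1, with base means of 1736 in the knockdown table and 743 in the inhibitor table, and FOS, with 508 and 231 (230.5). ETV4, also named after its value was seen, had the highest ratio of that list, 1.01. Among the relatives, SPRED1 had a ratio of 0.549, SPRED2 of 0.884 and DUSP9, at base means under 50, of 2.06. DUSP16 had a ratio of 0.384, but it reached 10 in the knockdown table alone. The minimum thus fixed that the share of DUSP16 was lower in the inhibitor table, though not by how much. Of the 6 promyelocyte markers with a ratio, 5 had a higher share in the inhibitor table and CD33, at 0.939, a lower one, which scaling to the median ratio brought to no difference. Their median was 1.65. AZU1 and CEBPE, named with CD33 after their values were seen, were over 2-fold higher. Their part in the ratios of the DUSP and SPRY genes was not tested.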

How the data were processed

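The submitters' processing notes and the study's methods give TruSeq RNA v2 libraries sequenced with an Illumina NovaSeq instrument, mapping to hg38 with STAR (2.7), quantification with RSEM and comparison in DESeq2 by the authors. The version of DESeq2 and the annotation release are not given in the sources used here. As deposited, the signal used is the base mean, 1 per gene and experiment. The other columns hold the authors' fold changes, standard errors, statistics and p-values of each hairpin against EV and of MC2580 against DMSO, and were not used. No count per library was used, so the planned test across conditions with edgeR was not run, and the depth of each library is unknown. The genes and lists were chosen with earlier results of these data known. Named were the 10 genes, their relatives, GSE1, the highest and lowest gene of each list by base mean per kb in the knockdown table, and genes said to be chosen later. One marker gene is not reported here. KDM1A, which encodes LSD1, had base means of 7648 and 6285. Gene positions, merged exon lengths and 3′ UTRs came from GENCODE release 44 on GRCh38, the build of hg38, to which 60261 of 60558 stable identifiers matched. Shares were base means divided by their sum over the table. The calculation of ratios was tested on simulated data with known changes, and no statistical test was run on the ratios. Python 3.11.15, pandas 2.3.3 and numpy 2.4.6 were used.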

Additional observations from a re-analysis of the deposited data

How the results depend on the processing

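Taking as background only protein-coding genes that reached 10, 4 of the 10 genes lay above the median base mean in the knockdown table instead of 9, and 3 instead of 7 in the inhibitor table. Above the median base mean per kb lay 6 instead of 10 in the knockdown table and 5 instead of 7 in the inhibitor table. This background leaves out low genes. With a limit of 1.5-fold, 5 of the 10 genes instead of 2 differed between the tables. In that setting 16.3% of all tested genes were lower and 8.14% higher in the inhibitor table. The 2 genes, DUSP4 and DUSP5, were past 2-fold also with scaling to the median ratio, with a pseudocount of 1, with a minimum base mean of 50 and without a minimum. Scaling to the median ratio moved all log2 ratios up by 0.09, which took SPRY1 from -0.01 to 0.09, so its direction depends on the scaling. No paired analysis was possible because only means over libraries were used, and for the same reason no replicate was left out, no second test was run and the error of a base mean is unknown.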
